A study of Mus musculus with 26 samples.

Results

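The 42 genes described here encode plasma proteins of 2 linked cascades, 21 of complement and 21 of blood coagulation with its inhibitors and clot breakdown. They were chosen by name, with earlier results of these data known. Identifiers of the deposited count table, with the version removed, were matched to mouse gene symbols, and 41 of the 42 were found among 47643 genes. These are all 21 complement genes and 20 coagulation genes, and Klkb1 (plasma prekallikrein) is not analysed here. RNA of mouse liver or of isolated hepatocytes was sequenced in 26 libraries of 10 groups, which make up 5 comparisons of a treated or mutant group with its own control.

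Complement is a set of blood proteins that mark and lyse microbes. It is started by C1q bound to antibody (the classical route), by mannose-binding lectins with their proteases (the lectin route) or by slow turnover of C3 itself (the alternative route), and all routes cleave C3 and can end in the membrane attack complex, a pore built from C5b, C6, C7, C8 and C9. Coagulation is a chain of proteases that ends in thrombin (gene F2), which cuts fibrinogen to fibrin. Antithrombin, protein C and protein S hold it in check, and plasmin dissolves the clot. Hepatocytes make most of these proteins, while C1q comes mainly from macrophages, factor VIII from endothelial cells and factor D (Cfd, adipsin) from fat cells. Fibrinogen and C3 belong to the acute phase proteins, which the liver raises in inflammation through interleukin-6 and STAT3.

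The knockout group carried Fxr-/- Shp-/- alleles, that is, it is labelled as lacking the bile acid receptor FXR (Nr1h4) and the repressor SHP (Nr0b2), and was set against wild type (3 libraries each, C57BL/6J, 12 weeks, fed ad libitum, whole liver). The hepatectomy group was taken 48 h after partial hepatectomy (PHx), the removal of part of the liver, and was set against sham livers of 0 h (3 libraries each, C3H/HeN, 8 to 10 weeks, ad libitum, whole liver, genotype not labelled). Hepatocytes of wild-type C57BL/6J mice of 16 weeks on a 60% high fat diet were set against those on chow (2 libraries each, after a fast of 10 h). Mice with floxed alleles of both genes (fl/fl Fxr fl/fl Shp, C57BL/6J, 10 to 12 weeks, whole liver) were fed a diet with cholic acid, a bile acid, or chow, and both groups were fasted for 8 to 10 h (3 libraries each). Wild-type C57BL/6J mice of 8 weeks (ad libitum, whole liver) received TCPOBOP, an agonist of the nuclear receptor CAR, or corn oil (2 libraries each). The titles put these TCPOBOP livers at 36 h after injection, and another label of the same samples reads 6 h. The labels name no Cre for the floxed mice, so both floxed groups are taken as they are labelled. Sham livers carry another time label than the hepatectomy livers, so the operation and the time after it cannot be told apart. Nothing in the labels says how the animals or cultures behind libraries of 1 group relate, so p-values measure the spread between these libraries.

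Libraries held 13949059 to 70367874 reads counted to genes, the most in the hepatocytes. All 8 hepatocyte markers found (such as Alb and Ttr) were above 0 in every group. The 10 macrophage markers summed to 46.3 to 85.2 CPM (counts scaled to a common library size, with TMM factors, within each experiment) in the hepatocyte libraries and to 118 to 650 CPM in the whole-liver libraries. In the knockout check, the counts of Nr0b2 were 280, 446 and 226 for wild type against 13, 25 and 39 for the knockout, and those of Nr1h4 were 2846, 2546 and 1941 against 1421, 1198 and 1356, so reads of Nr1h4 remained, and gene counts do not show from which exons. The library labelled corn oil 1 went against its label, since the CAR target Cyp2b10 had 66626 counts there, 180 counts for corn oil 2, and 58933 and 49005 counts for TCPOBOP 1 and 2. Knockout 3 stood apart in Cidec, a lipid droplet gene on the list of 6 fat cell markers (91.0 CPM, against 17.7 and 20.4 CPM in knockout 1 and 2 and 2.21 to 3.17 CPM in wild type), while the fat cell markers Adipoq and Lep were at 0 there. Floxed chow 3 stood apart in neutrophil markers (17.7 CPM, against 1.16 and 1.20 CPM). In whole-liver RNA, fewer cells of a type and less RNA per cell cannot be told apart.

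The members with the largest called falls were terminal complement genes, C9 and C6 in the knockout and C6 and C8b in hepatocytes and under cholic acid. C6, C8b and C9 fell in the knockout, in high fat hepatocytes and under cholic acid, and the fibrinogen genes and C3 rose after hepatectomy. A member counts as called where edgeR's quasi-likelihood test gave it an adjusted p under 0.05 (Benjamini-Hochberg, over all genes). In the knockout 1 complement gene was raised and 10 were lowered of 20 tested, and 1 coagulation gene was raised and 8 were lowered of 20, where 40.4% of all tested genes were called (21% raised and 19.4% lowered). After hepatectomy 4 complement genes were raised and 4 lowered of 20, and 4 coagulation genes were raised and 6 lowered of 20, beside 30.7% of all genes (16.4% and 14.3%). In high fat hepatocytes 5 complement genes were raised and 7 lowered of 21, beside 1 and 1 of 20 coagulation genes and 24% of all genes (12.9% raised and 11.1% lowered). Cholic acid lowered 4 of 21 complement and 2 of 20 coagulation genes and raised none in this test, beside 4.77% of all genes (2.27% raised and 2.5% lowered). With TCPOBOP 0 of 41 members were called by edgeR, as were 0 of all 12785 genes, and 5 members had an unadjusted p under 0.05, as did 5.87% of all genes. DESeq2 called 1 member there, beside 109 of all 12785 genes. Cfd fell under the count filter in the knockout and hepatectomy comparisons. In the 4 comparisons with calls, coagulation genes in high fat hepatocytes were the one case below the share of all genes. Those in the knockout lay near it, with 9 called of 20 beside 40.4%, and 8 with scaling by library size alone.

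Counted by overlap, 13 complement genes had every knockout library below every wild-type library and 0 had them above, and 10 coagulation genes lay below and 2 above, where 53.4% of all genes had groups apart (26.5% above and 26.9% below). After hepatectomy 5 complement genes lay below and 4 above, and 8 coagulation genes below and 6 above, beside 47% of all genes (22.6% and 24.4%). In hepatocytes 10 complement genes lay below and 8 above, and 14 coagulation genes below and 2 above, beside 68.2% (33% and 35.1%). On cholic acid 9 complement genes lay below and 2 above, and 7 coagulation genes below and 0 above, beside 31.2% (15.7% and 15.5%). With TCPOBOP 1 complement gene lay below and 7 above, and 1 coagulation gene below and 8 above, beside 35.4% (18.7% and 16.8%).

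**Figure D1:**
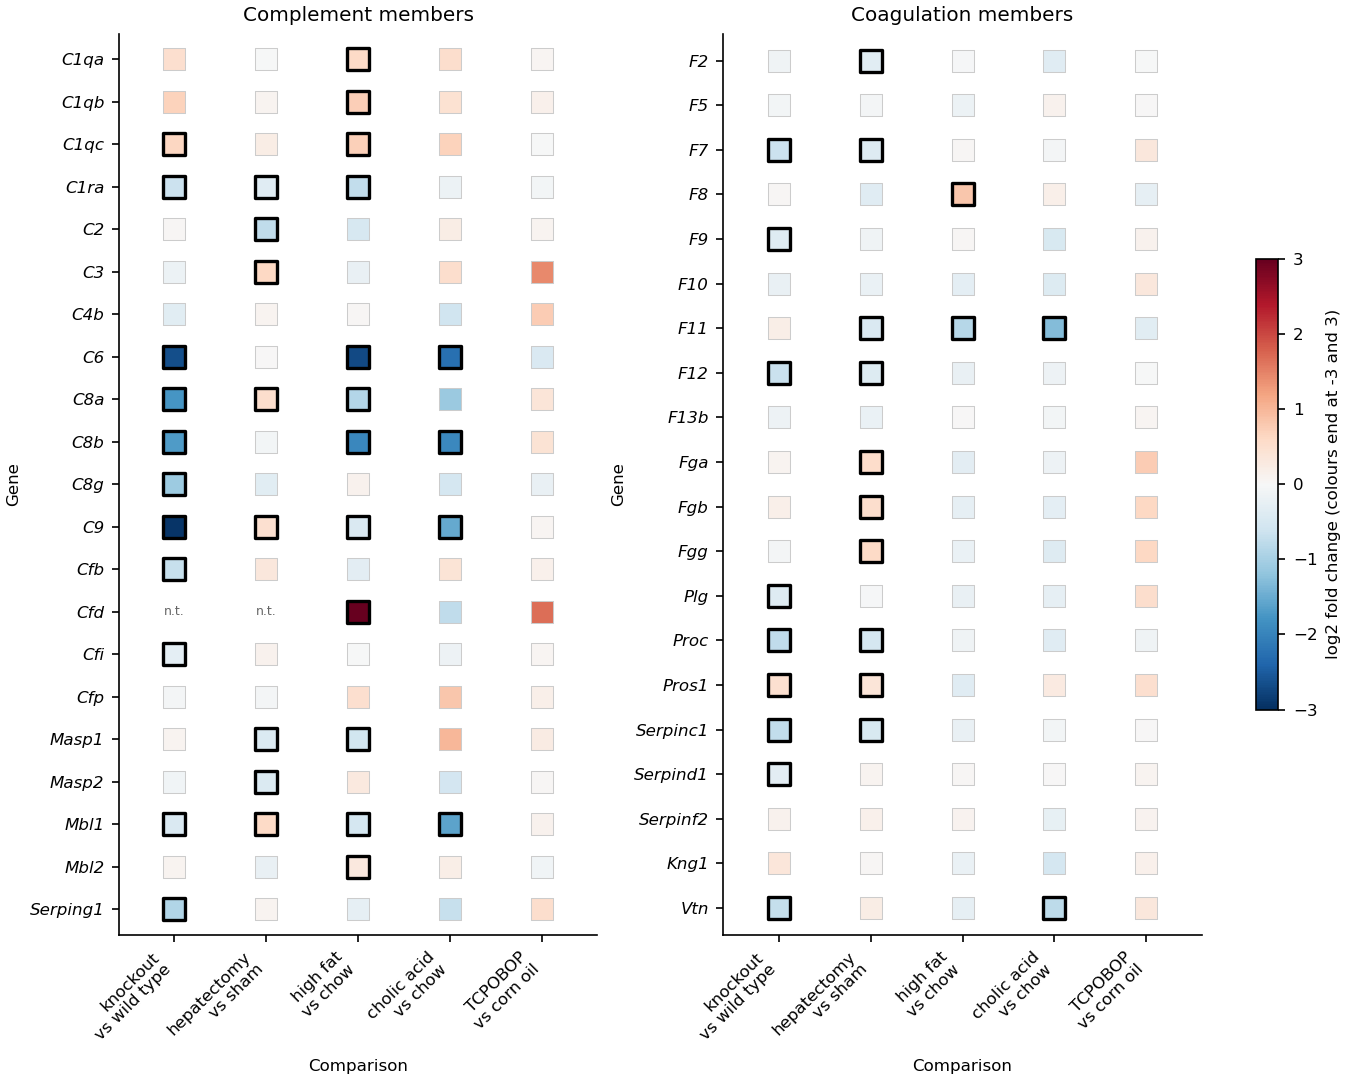
Fold changes of the 41 members (rows) in the 5 comparisons (columns), as colour on a log2 scale that ends at -3 and 3, complement left and coagulation right. A black frame marks an adjusted p under 0.05 (edgeR), and n.t. means not tested. C6, C8b and C9 are framed in blue in the knockout, high fat and cholic acid columns, and Fga, Fgb and Fgg are framed in red in the hepatectomy column.

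The median log2 fold change of the complement genes tested was -0.31 in the knockout, 0.04 after hepatectomy, -0.22 in high fat hepatocytes, -0.17 under cholic acid and 0.13 with TCPOBOP. The medians of the coagulation genes were -0.14, -0.09, -0.21, -0.25 and 0.11 in the same order, and those of all genes lay between -0.02 and 0.01. With scaling by library size alone the median of all genes was 0.19 in the knockout, 0.20 after hepatectomy, 0.14 in hepatocytes and 0.19 under cholic acid. With that scaling 4125 genes were raised and 1277 lowered in the knockout (2823 and 2618 with TMM), 3730 and 1053 after hepatectomy (2256 and 1969), 2502 and 872 in hepatocytes (1789 and 1544), and 556 and 243 under cholic acid (285 and 315). The members called then were 5 raised and 12 lowered in the knockout in place of 2 and 18, 12 and 5 after hepatectomy in place of 8 and 10, 8 and 7 in hepatocytes in place of 6 and 8, and 1 and 5 under cholic acid in place of 0 and 6. Lost with that scaling were the calls of Cfb, Cfi, F9, Mbl1, Plg and Serpind1 in the knockout (log2 fold changes from -0.49 to -0.098), of C1ra, F2, F7, F11 and Masp1 after hepatectomy (-0.28 to -0.16), of C9 in hepatocytes (-0.32) and of Vtn under cholic acid (-0.59). With all 26 libraries in 1 fit, the calls lost were those of C1qc, Cfb, Cfi, Mbl1, Pros1 and Serpind1 in the knockout, of C8a, C9, Masp1 and Pros1 after hepatectomy, and of C1qa, C1qb, C1qc, C8a, C9, F8, Masp1, Mbl1 and Mbl2 in hepatocytes. No called member changed its direction under any alternative. Of the complement genes, C4b and Cfp were called in none of the 5 comparisons, and of the coagulation genes F5, F10, F13b, Serpinf2 and Kng1. Of complement genes 5 were lowered in 3 comparisons (C1ra, C6, C8b, C9 and Mbl1), and of coagulation genes 1 (F11). The share of all genes lowered in 3 comparisons is not given here, so these counts are not set against it. Some of these calls were lost when a single library was left out, for each gene except C8b.

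Levels per length of exon, CPM divided by all exon bases annotated for a gene, show roughly how far apart the members lie. Which transcripts were present was not tested, and these bases can exceed those of 1 transcript, so the order depends on the annotation. In wild-type liver C3 had the highest level at 1506 ± 105 CPM per kb (SD, n = 3), then Fga at 1405 ± 182, Fgg at 1385 ± 152, Vtn at 1219.9 ± 76.8 and Fgb at 1016 ± 119.5 CPM per kb. Neighbours in this order did not differ beyond their SDs, except Vtn and Fgb. In CPM without lengths this pair stood the other way, at 2476 ± 156 for Vtn and 3870 ± 455 for Fgb. Their exons were taken as 2030 and 3810 bases, so the difference per kb rests on these lengths. C9, at 284 ± 18.7, led the terminal complement genes, ahead of C8g (181 ± 23), C8a (164 ± 18.4), C8b (124 ± 15.7) and C6 (96.1 ± 11 CPM per kb). At the low end stood C2 (7.42 ± 0.612), Cfb (2.25 ± 0.0698), F8 (0.900 ± 0.331) and Cfd (0.0388 ± 0.0672 CPM per kb), which was at 0 in wild type 2 and 3. The exons of C2 and Cfb share 42.8% and 79.5% of their length with the same-strand gene model Gm20547. Reads there may not have been counted to either gene, so their places in this order are uncertain.

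Genes of the membrane attack complex fell in the knockout, all 5 of those among the members: C9 to 0.130 and C6 to 0.159 of the wild-type mean, C8a and C8b, which encode the alpha and beta chains of C8, to 0.293 and 0.310, and C8g, the gamma chain, to 0.473. C9, which forms the wall of the pore, stood at 697, 781 and 700.2 CPM in the wild-type libraries against 124, 134 and 25.5 CPM for the knockout (log2 fold change -2.94, SE 0.506, adjusted p = 0.00221). C6, which joins the complex before C7 and C8, stood at 297, 369 and 359.6 CPM against 68.8, 61.2 and 33.3 CPM (log2 fold change -2.65, SE 0.246, adjusted p = 8.66e-05). Every knockout library lay below every wild-type library for both genes, and knockout 3 was the lowest.

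C8a stood at 549, 674 and 569 CPM in wild type and 199, 227 and 97.8 CPM in the knockout (log2 fold change -1.77, SE 0.272, adjusted p = 0.00122). C8b stood at 278, 357 and 309.7 against 104, 103 and 85.5 CPM (log2 fold change -1.69, SE 0.126, adjusted p = 2.61e-05), and C8g at 276, 233 and 300.4 against 129.6, 143 and 109.8 CPM (log2 fold change -1.08, SE 0.132, adjusted p = 0.000371). None of these genes overlapped between the groups, and all 5 called falls remained in each fit that left out 1 library. Of the 8 hepatocyte markers 5 were lowered in the knockout, with sums of 107894 to 134190 CPM in wild type and 70142 to 93517 CPM in the knockout, and their part in these falls was not tested. Of the 6 bile duct markers 5 were raised, which together reached 27.3 to 38.2 CPM in wild type against 58 to 136 CPM in knockout livers. Of 4 neutrophil markers tested 3 were raised, with sums of 1.75 to 3.44 CPM against 12.5 to 23.3 CPM, and the part of neither list was tested. Without knockout 3, the library with the high Cidec level, the log2 fold changes were -2.48 for C9, -2.38 for C6, -1.48 for C8a, -1.59 for C8b and -0.98 for C8g.

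In isolated hepatocytes of mice on the high fat diet C6 and C8b were the members that fell most. C6 stood at 549 and 499 CPM on chow and 82.9 and 76.9 CPM on high fat diet (log2 fold change -2.71, SE 0.100, adjusted p = 0.000386). C8b stood at 547 and 465 against 119 and 142 CPM (log2 fold change -1.95, SE 0.132, adjusted p = 0.00148), and C8a at 1242 and 1188 against 696 and 624 CPM (log2 fold change -0.88, SE 0.0966, adjusted p = 0.00542). The groups lay far apart for C6 and C8b. Of the 8 hepatocyte markers 4 were lowered here, with sums of 105830 and 111692 CPM on chow and 94092 and 96448 CPM on high fat diet, and their part was not tested. C9 fell less, from 954 and 1072 CPM to 742 and 743 CPM (log2 fold change -0.45, SE 0.0959, adjusted p = 0.0255), and its call was lost without chow 2 or high fat 1 or 2 (adjusted p from 0.0742 to 0.0913). C8g was 312 and 316 against 349 and 343 CPM and was not called (log2 fold change 0.14, SE 0.0797, adjusted p = 0.244).

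Cholic acid lowered C6, C8b and C9. C9 stood at 787, 750.5 and 834 CPM on chow and 309, 200.3 and 309 CPM on cholic acid (log2 fold change -1.54, SE 0.210, adjusted p = 0.00935). C8b stood at 428, 342 and 646 against 131, 99.8 and 138 CPM (log2 fold change -1.94, SE 0.265, adjusted p = 0.00935), and C6 at 364, 341 and 277 against 72.5, 24 and 109 CPM (log2 fold change -2.25, SE 0.470, adjusted p = 0.0345). The groups did not overlap for any of the 3 genes, and C6 varied most among the cholic acid libraries. Its call was lost without cholic acid 1 or floxed chow 1 or 2 (adjusted p from 0.0773 to 0.113). C8a, at 680.4, 601 and 991 against 339, 197 and 514 CPM (log2 fold change -1.11, SE 0.349, adjusted p = 0.107), and C8g (log2 fold change -0.54, SE 0.169, adjusted p = 0.110) did not pass the test. Without floxed chow 3, the library with the high neutrophil markers, the log2 fold changes were -1.49 for C9, -1.65 for C8b and -2.36 for C6.

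After hepatectomy the terminal genes did not fall in any call. C8a rose from 833, 954 and 917 CPM in sham livers to 1302, 1212 and 1362 CPM (log2 fold change 0.52, SE 0.0898, adjusted p = 0.00384), and C9 rose from 913, 857 and 831 to 1066, 1109 and 1429 CPM (log2 fold change 0.47, SE 0.122, adjusted p = 0.0217). The groups did not overlap for either gene. The call of C9 was lost without sham 2 or 3 (adjusted p from 0.0830 to 0.0894). C6 stood at 267, 302 and 279.9 against 298, 296 and 262 CPM (log2 fold change 0.01, SE 0.0890, adjusted p = 0.938). Neither C6 nor C8b (log2 fold change -0.08, SE 0.0801, adjusted p = 0.515) nor C8g (log2 fold change -0.34, SE 0.116, adjusted p = 0.0593) passed the test.

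**Figure D2:**
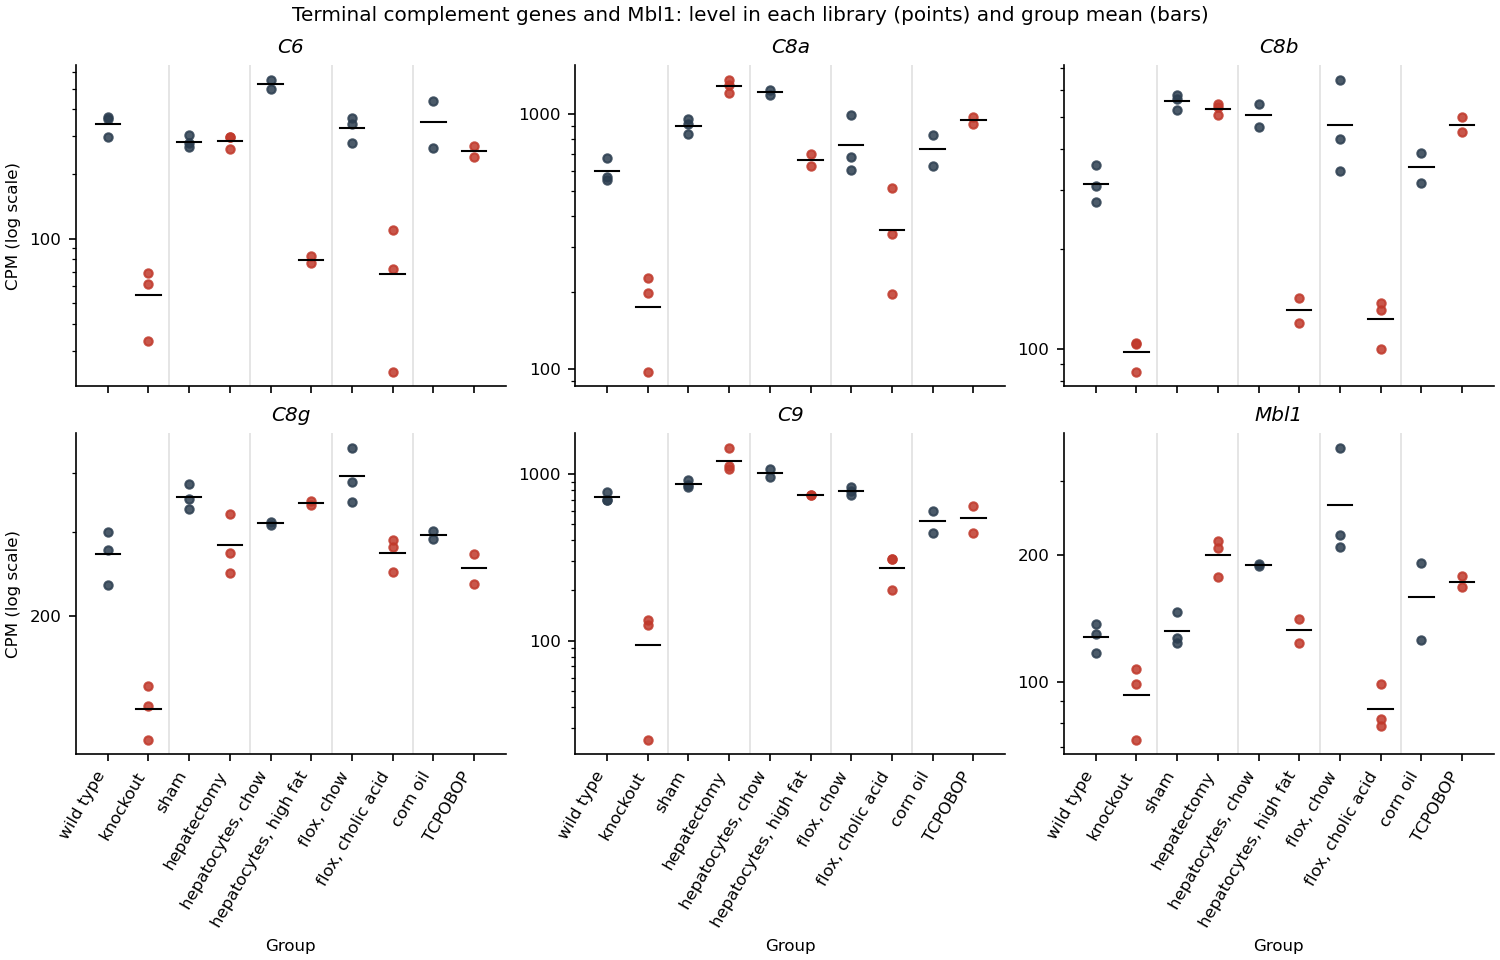
Level (CPM, log axis) of the terminal complement genes and of Mbl1 in each of the 26 libraries (points, dark for control and red for treated groups) with the group mean (bar), by group. The knockout points of C9 (25.5 to 134 CPM) lie below all other groups, and C6 and C8b are low in the knockout, high fat and cholic acid groups.

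The RefSeq promoter table of the GRCm38.p6 build gives the sequence before the start of these genes. C8a (chr4:104815679-104876398, minus strand) and C8b (chr4:104766317-104804548, plus strand) are neighbours that run toward each other, so their start sites lie at the far ends of the pair, and C6 and C9 both lie on chromosome 15 (C6 at chr15:4727175-4814967 and C9 at chr15:6445327-6498751, both on the plus strand). The upstream sequences of C8a, C8b and C9, which fell together in the knockout, are shown because they hold a match, while those of C6 and C8g, which fell too, hold none and are not shown. Capitals mark matches, on either strand, to the letters TTCNNNGAA (STAT), TTGCNNAA (C/EBP), CTGGGAA (an element of interleukin-6 responsive genes) or GTTAAT. The sequences read 5′ to 3′ toward the gene and span chr4:104876399-104876648 (minus strand) for C8a, chr4:104766067-104766316 (plus strand) for C8b and chr15:6445096-6445326 (plus strand) for C9.
C8a: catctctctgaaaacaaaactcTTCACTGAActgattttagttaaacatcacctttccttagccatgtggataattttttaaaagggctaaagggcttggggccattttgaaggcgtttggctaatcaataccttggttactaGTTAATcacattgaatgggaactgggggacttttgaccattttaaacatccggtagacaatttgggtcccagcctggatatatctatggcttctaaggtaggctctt
C8b: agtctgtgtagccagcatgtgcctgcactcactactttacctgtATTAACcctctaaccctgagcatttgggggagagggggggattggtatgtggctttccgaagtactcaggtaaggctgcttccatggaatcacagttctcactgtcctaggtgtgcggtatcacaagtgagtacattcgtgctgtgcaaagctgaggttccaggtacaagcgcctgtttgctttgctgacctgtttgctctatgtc
C9: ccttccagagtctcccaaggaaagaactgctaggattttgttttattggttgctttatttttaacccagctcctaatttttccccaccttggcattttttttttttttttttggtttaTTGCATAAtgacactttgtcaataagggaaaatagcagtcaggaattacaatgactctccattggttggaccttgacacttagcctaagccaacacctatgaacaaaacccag
In C8a the STAT letters begin at -228 and the GTTAAT letters at -107, counted from the table's start, in C8b the GTTAAT letters begin at -206, and in C9 the C/EBP letters begin at -132. Over 250 bases upstream of the table's start, GTTAAT letters were in 4 of 15 complement promoters and 4 of 18 coagulation promoters, that of Klkb1 included (26.7% and 22.2%), beside 6.43% of 32851 promoters. These 33 promoters belong to 32 members, since C8g has more than 1, and the other members have none in the table. The GTTAAT and CTGGGAA matches of C1ra and the GTTAAT match of Fga lie past the GENCODE start of the gene. STAT letters were in 2 and 4 (13.3% and 22.2%, beside 7.02%), and C/EBP letters in 2 and 5 (13.3% and 27.8%, beside 9.56%). CTGGGAA was in 2 and 3 (13.3% and 16.7%, beside 9.1%) and overlapped the STAT match in Masp2 and F9. HNF4 letters (CAAAGTCCA) and the core of the inverted repeat bound by FXR (GTCANTGAC) were in 0 of the members' promoters, beside 0.384% and 0.32% of all. Each match is a run of letters and was not tested as a binding site.

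The lectin route was split between its 2 mannose-binding lectins. Mbl1 moved in 4 comparisons and in both directions, whereas Mbl2 was called once. Mbl1 stood at 130.0, 117 and 137 CPM in wild type and 98.7, 107 and 72.9 CPM in the knockout (log2 fold change -0.46, SE 0.142, adjusted p = 0.0297), and this call was lost without knockout 1 or wild type 1 or 3 (adjusted p from 0.0584 to 0.0918). It fell from 189 and 191 to 124 and 141 CPM in hepatocytes (log2 fold change -0.52, SE 0.0947, adjusted p = 0.0176), a call lost without high fat 1 (adjusted p = 0.0750). Under cholic acid it fell from 209, 223 and 359.7 to 99.1, 78.4 and 81.8 CPM (log2 fold change -1.61, SE 0.242, adjusted p = 0.0113), a call lost without cholic acid 2 or 3 (adjusted p from 0.0537 to 0.0541). After hepatectomy it rose from 146, 127 and 124 to 208, 178 and 216 CPM (log2 fold change 0.60, SE 0.105, adjusted p = 0.00415). In these 4 comparisons the treated and control libraries of Mbl1 did not overlap, and the cholic acid change was the largest.

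Mbl2 stood at 340.1, 260.3 and 296 CPM in wild type and 357, 383 and 205 in the knockout, and at 397, 389 and 395 CPM in sham and 343, 254 and 408 after hepatectomy. It was 211, 276 and 358 CPM on floxed chow and 396, 367 and 208 on cholic acid, and none of these pairs was called. In hepatocytes it rose from 279.8 and 292 to 351 and 356 CPM (log2 fold change 0.31, SE 0.0814, adjusted p = 0.0448), a call lost in each of the 4 fits that left out 1 library (adjusted p from 0.0936 to 0.152). Masp1 and Masp2 encode proteases that ride on these lectins. Masp1 fell after hepatectomy (log2 fold change -0.43, SE 0.0823, adjusted p = 0.00592) and in high fat hepatocytes (log2 fold change -0.58, SE 0.0915, adjusted p = 0.0120), and Masp2 fell after hepatectomy (log2 fold change -0.44, SE 0.0702, adjusted p = 0.00278). The exons of Masp2 overlap those of Tardbp on the opposite strand over 54.9% of their length (GENCODE M21), and the use of strand in counting is not given in the sources used here, so its counts are uncertain.

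C1q, the recognition protein of the classical route, was raised in high fat hepatocytes together with macrophage markers. C1qa stood at 3.89 and 4.73 CPM on chow and 6.12 and 6.96 CPM on high fat diet (log2 fold change 0.60, SE 0.161, adjusted p = 0.0456). C1qb was 3.66 and 4.67 against 6.60 and 7.29 CPM (log2 fold change 0.74, SE 0.168, adjusted p = 0.0302), and C1qc 3.46 and 4.18 against 5.89 and 6.65 CPM (log2 fold change 0.71, SE 0.161, adjusted p = 0.0295). The groups did not overlap for any of the 3 chains, and their levels were the lowest of the 10 groups. Each of the 3 calls was lost without chow 1, high fat 1 or high fat 2 (adjusted p up to 0.169 for C1qa, 0.105 for C1qb and 0.113 for C1qc). Of the 10 macrophage markers 6 were raised and 0 lowered in this comparison, their sum was 46.3 and 47.1 CPM on chow and 74.1 and 85.2 CPM on high fat diet, and none was at 0. Their part in the C1q result was not tested.

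In whole liver the 3 chains summed to 84.5 to 156 CPM in wild type and 128 to 219 CPM in the knockout. C1qc alone passed the test there, at 35.5, 28.9 and 53.4 CPM in wild type and 73.4, 61.2 and 48.8 CPM in the knockout (log2 fold change 0.64, SE 0.223, adjusted p = 0.0485). The groups overlapped, and the call was lost without knockout 1 or 2 or wild type 1 or 2 (adjusted p from 0.107 to 0.162). C1qa was 34.6, 27.1 and 53.5 against 68.7, 57 and 37 CPM (log2 fold change 0.50, SE 0.272, adjusted p = 0.176), and C1qb 34.2, 28.4 and 49.6 against 76.6, 62.1 and 42 CPM (log2 fold change 0.69, SE 0.245, adjusted p = 0.0520). Of the 10 macrophage markers 2 were raised and 1 was lowered in the knockout, with sums of 217 to 494 CPM in wild type and 321 to 650 CPM in the knockout, and their part in the C1qc result was not tested. Without knockout 3 all 3 chains passed the test, with log2 fold changes of 0.72 for C1qa, 0.90 for C1qb and 0.79 for C1qc.

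After hepatectomy the chains were 32.6, 28.9 and 22.1 against 31.5, 26.4 and 25.5 CPM for C1qa, 24.3, 26 and 21.4 against 32.1, 23.5 and 19.8 CPM for C1qb, and 24.8, 26.3 and 17.5 against 32.2, 27.3 and 20.2 CPM for C1qc, sham first. The groups overlapped for each chain and none was called. Under cholic acid they were 20.5, 18.3 and 32.9 against 30.6, 29.9 and 42.1 CPM for C1qa, 18.4, 14.7 and 43.1 against 30.9, 32.7 and 40.2 CPM for C1qb, and 17.1, 16.6 and 37.1 against 32, 35.2 and 47 CPM for C1qc, chow first. None was called with all 6 libraries. Floxed chow 3 was the highest chow library for each chain, and its macrophage markers summed to 325 CPM against 118 and 152 CPM in the other chow libraries and 274 to 455 CPM on cholic acid. Without it the chains passed the test, with log2 fold changes of 0.82, 1.06 and 1.18 for C1qa, C1qb and C1qc.

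**Figure D3:**
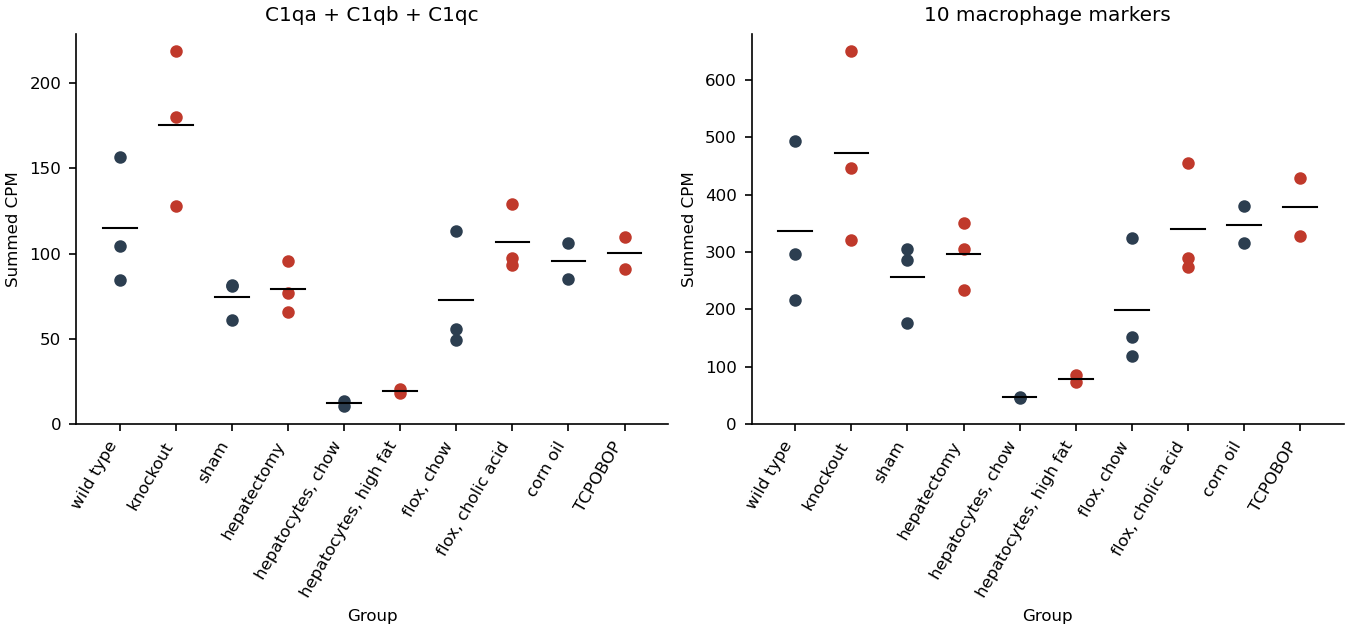
Summed level (CPM, linear axis from 0) of C1qa, C1qb and C1qc (left) and of 10 macrophage markers (right) in each library (points, dark for control and red for treated groups), with the group mean (bar). The hepatocyte groups are lowest in both panels (11 to 20.9 CPM for C1q), and floxed chow 3 is the high point of its group in both.

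The calls of C1ra and C2, the members that encode proteases following C1q, were all falls. C1ra, the protease bound to C1q, fell in the knockout (log2 fold change -0.64, SE 0.126, adjusted p = 0.00428), after hepatectomy (log2 fold change -0.36, SE 0.0823, adjusted p = 0.0125) and in high fat hepatocytes (log2 fold change -0.74, SE 0.0796, adjusted p = 0.00516). Its call after hepatectomy was lost without sham 2 or 3 (adjusted p from 0.0525 to 0.0583). C2, which supplies the active part of the C3 convertase of the classical and lectin routes, stood at 18, 19.7 and 23.9 CPM in sham livers and 10.1, 12 and 14 CPM after hepatectomy (log2 fold change -0.77, SE 0.155, adjusted p = 0.00751), and the groups did not overlap. Its exons share 42.8% of their length with the same-strand model Gm20547, which had 0 counts in all 26 libraries, so the counts of C2 are uncertain. C4b, the other part of that convertase, was called in no comparison (in the knockout log2 fold change -0.33, SE 0.126, adjusted p = 0.0670), and it has a near-identical copy, C4a. Serping1, the C1 inhibitor, fell in the knockout from 908, 851 and 927 to 536, 563 and 348 CPM (log2 fold change -0.89, SE 0.173, adjusted p = 0.00396), with knockout 3 the lowest.

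C3, on which all routes meet, was called after hepatectomy alone when all libraries were used. It stood at 7111, 6566 and 6341 CPM in sham livers and 10959.6, 8955 and 10689.5 CPM after hepatectomy (log2 fold change 0.61, SE 0.110, adjusted p = 0.00448). All 3 hepatectomy libraries lay above all 3 sham libraries, and the call remained in each fit that left out 1 library. In the knockout comparison C3 was 7619, 7282 and 8342 CPM in wild type and 7049.8, 6631 and 6945 CPM in the knockout (log2 fold change -0.17, SE 0.117, adjusted p = 0.269), lower in all 3 knockout libraries and not called. In hepatocytes it was 9579.9 and 8775 against 7224 and 8582 CPM (log2 fold change -0.22, SE 0.122, adjusted p = 0.240), and on cholic acid 7276, 9076 and 7202 CPM against 5344, 4707 and 6328 CPM on chow (log2 fold change 0.52, SE 0.205, adjusted p = 0.175). The cholic acid libraries all lay above the chow libraries without passing the test.

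The alternative route and its regulators gave few calls. Cfb, which pairs with C3b, was low throughout (1.34 to 8.74 CPM) and fell in the knockout (log2 fold change -0.70, SE 0.198, adjusted p = 0.0218), a call lost without knockout 2 or wild type 1 or 3 (adjusted p from 0.0587 to 0.0659). Its exons share 79.5% of their length with Gm20547, so it is uncertain. Cfi, the protease that inactivates C3b, fell in the knockout (log2 fold change -0.30, SE 0.0968, adjusted p = 0.0354), a call lost in all 6 fits that left out 1 library (adjusted p from 0.0520 to 0.102). Cfp, properdin, which stabilises the alternative convertase, was called in no comparison. Cfd, factor D, which activates Cfb, was raised in high fat hepatocytes, where it had 4 counts in the 2 chow libraries together and 338 in the high fat libraries, a ratio of 68.7 (95% interval of counting error 26.6 to 254, edgeR adjusted p = 0.00129). In CPM this was 0.0178 and 0.0473 on chow and 2.29 and 2.32 on high fat diet. Of the 6 fat cell markers, which summed to at least 18.3 CPM on chow and to 45 and 30.8 CPM on high fat diet, Cidec and Lipe were tested and raised. The defining markers Adipoq, Plin1, Lep and Retn were at most 0.0789 CPM in each hepatocyte library, and Lep and Retn were at 0 in both high fat libraries. In the other groups Cfd was at most 0.457 CPM in wild-type, knockout, sham and hepatectomy livers, 0.248 to 5.09 CPM in the floxed mice, and 2.33 and 6.18 CPM with corn oil against 9.11 and 18.1 CPM with TCPOBOP.

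The 3 fibrinogen chains rose together after hepatectomy and were called in no other comparison. Fga, the alpha chain, stood at 4730.4, 4909.7 and 4814 CPM in sham livers and 7694, 5823 and 7712 CPM after hepatectomy (log2 fold change 0.55, SE 0.123, adjusted p = 0.0117). Fgb, the beta chain, stood at 3679, 3772 and 3761 against 5750.1, 4699.6 and 5646 CPM (log2 fold change 0.52, SE 0.102, adjusted p = 0.00670), and Fgg, the gamma chain, at 2765, 2778 and 2796 against 4409.9, 3478 and 4807 CPM (log2 fold change 0.61, SE 0.124, adjusted p = 0.00820). Every hepatectomy library lay above every sham library for each chain, and hepatectomy 2 was the lowest of its group. The call of Fga was lost without sham 3 (adjusted p = 0.0504), and those of Fgb and Fgg remained in each such fit. With a minimum absolute log2 fold change of 0.5 none of the 3 was called, nor was any other member after hepatectomy.

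The genes lie side by side on chromosome 3 of GRCm38, Fgg at chr3:83007724-83015049 and Fga at chr3:83026076-83033627 on the plus strand, and Fgb at chr3:83040141-83049863 on the minus strand. Their upstream sequences from the RefSeq table are shown because the 3 rose together, with the same letters in capitals. They span chr3:83007474-83007723 for Fgg, chr3:83025903-83026075 for Fga (both plus strand) and chr3:83049864-83050113 for Fgb (minus strand), and that of Fga ends where its GENCODE transcript begins.
Fgg: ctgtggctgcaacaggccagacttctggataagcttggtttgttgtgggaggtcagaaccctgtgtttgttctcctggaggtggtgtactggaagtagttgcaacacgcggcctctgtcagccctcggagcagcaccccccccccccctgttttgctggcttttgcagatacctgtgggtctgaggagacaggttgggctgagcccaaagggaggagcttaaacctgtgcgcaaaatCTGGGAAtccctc
Fga: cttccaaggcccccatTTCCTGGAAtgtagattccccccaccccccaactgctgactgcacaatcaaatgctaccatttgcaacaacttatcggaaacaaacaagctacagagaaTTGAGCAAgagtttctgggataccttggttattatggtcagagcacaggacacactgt
Fgb: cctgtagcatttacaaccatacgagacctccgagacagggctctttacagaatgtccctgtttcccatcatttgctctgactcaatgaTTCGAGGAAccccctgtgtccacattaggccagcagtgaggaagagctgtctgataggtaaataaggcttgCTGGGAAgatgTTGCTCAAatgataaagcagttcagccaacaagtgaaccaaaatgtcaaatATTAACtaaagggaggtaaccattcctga
CTGGGAA occurs in Fgg at -13 and in Fgb at -91, STAT letters occur in Fga at -234 and in Fgb at -162, and C/EBP letters in Fga at -135 and in Fgb at -80. GTTAAT letters occur in Fgb at -29, and in Fga at -43, past the part shown.

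Elsewhere the chains did not pass the test. In wild type against knockout Fga was 4029, 4849 and 3811 against 4505, 4135 and 4830.3 CPM, Fgb 3587, 4396 and 3628 against 4139, 3700.2 and 5252 CPM, and Fgg 2735, 3266 and 2695 against 2769.9, 2564 and 2996 CPM, and the groups overlapped for each. On chow against high fat diet the hepatocytes had 5456 and 5014 against 4249.8 and 4174 CPM of Fga, 4404 and 3813 against 3314 and 3458 CPM of Fgb, and 3109 and 2657 against 2499 and 2511 CPM of Fgg. Here both high fat libraries lay below both chow libraries for each chain, with adjusted p between 0.0624 and 0.218. On floxed chow against cholic acid Fga was 5553, 5239 and 6324 against 5790.4, 5101 and 4483 CPM, Fgb 4192, 4546 and 6404 against 4366, 4215 and 3770.1 CPM, and Fgg 3421, 3613 and 4854 against 3350.1, 3124 and 2679 CPM, where floxed chow 3 was the highest for each chain. The groups overlapped for Fga and Fgb, and all cholic acid libraries lay below all chow libraries for Fgg.

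**Figure D4:**
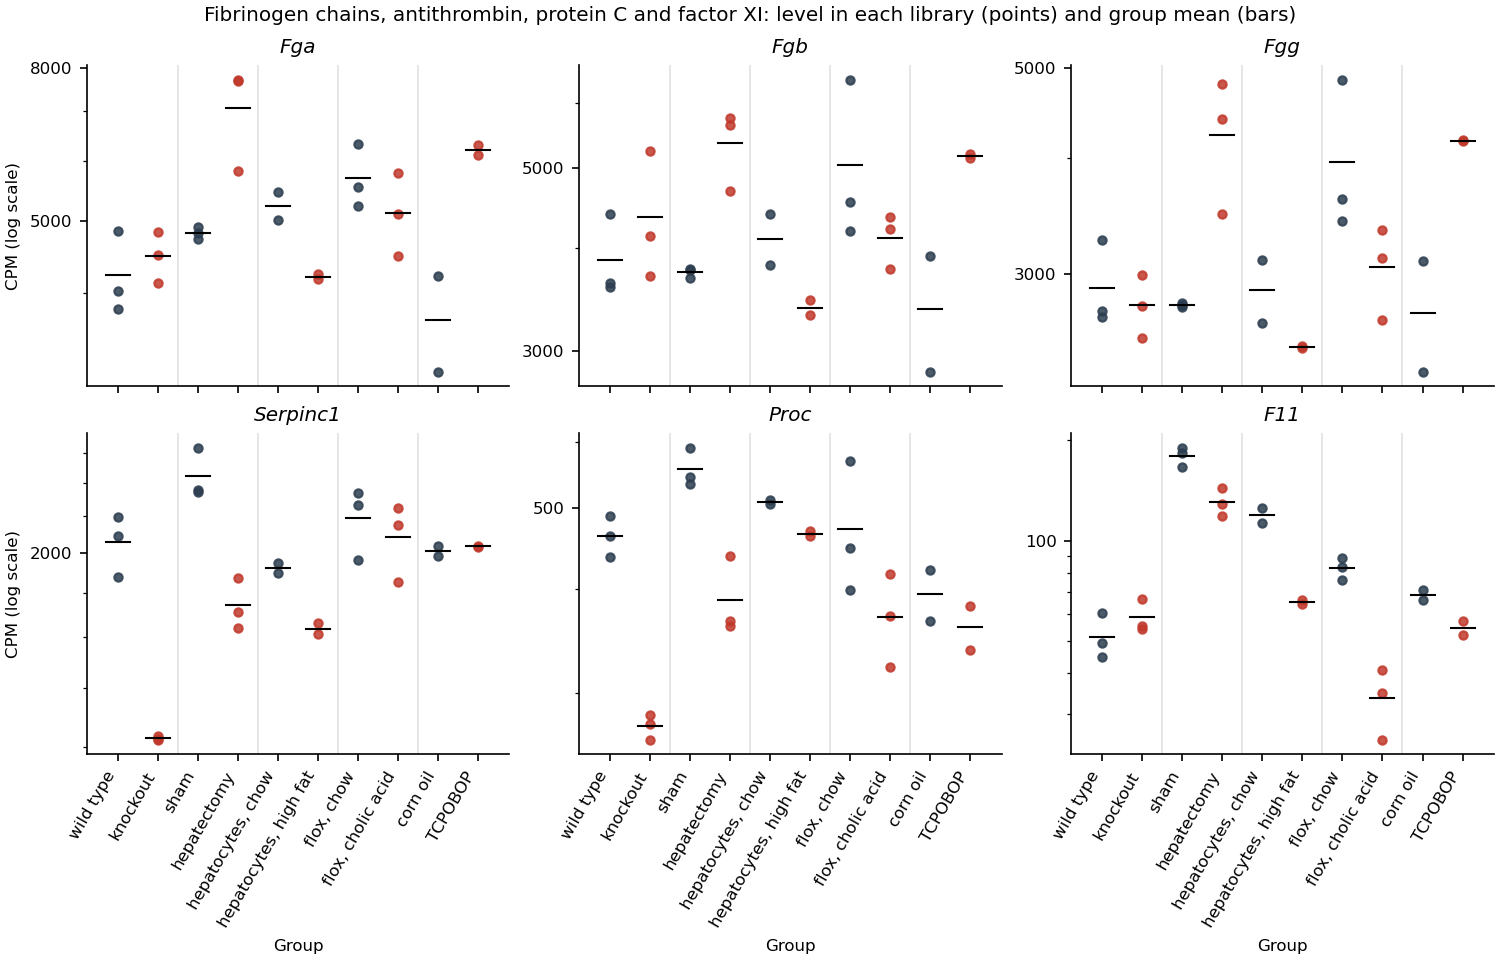
Level (CPM, log axis) of the fibrinogen chains, antithrombin (Serpinc1), protein C (Proc) and factor XI (F11) in each library (points, dark for control and red for treated groups), with the group mean (bar). The hepatectomy points lie above the sham points for the 3 fibrinogen chains and below them for Serpinc1, Proc and F11.

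Most calls of the clotting proteases were falls. After hepatectomy 4 of the 8 hepatocyte markers were lowered as well, with sums of 149127 to 150438 CPM in sham livers and 112669 to 128695 CPM after hepatectomy, and their part in the falls there was not tested. F11, factor XI of the contact route, fell in 3 comparisons. It stood at 166, 189.7 and 183 CPM in sham livers and 119, 144 and 129 CPM after hepatectomy (log2 fold change -0.46, SE 0.0967, adjusted p = 0.00885). In hepatocytes it stood at 125 and 113 CPM on chow and 66.3 and 64.5 CPM on high fat diet (log2 fold change -0.87, SE 0.0860, adjusted p = 0.00425), and in floxed mice at 88.8, 83.1 and 76.3 against 34.7, 25.2 and 40.9 CPM (log2 fold change -1.30, SE 0.201, adjusted p = 0.0123). The groups did not overlap in any of these, and the cholic acid call was lost without cholic acid 1 or floxed chow 2 (adjusted p from 0.0505 to 0.0509). In wild type against knockout it was 49.1, 60.6 and 44.6 against 66.7, 55.2 and 54.4 CPM (log2 fold change 0.19, SE 0.132, adjusted p = 0.277), and the groups overlapped.

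F12, factor XII, which starts the contact route, fell in the knockout from 650.3, 588 and 615 to 369, 381 and 409 CPM (log2 fold change -0.68, SE 0.0954, adjusted p = 0.000798) and after hepatectomy from 279.6, 296 and 308 to 233, 211 and 221 CPM (log2 fold change -0.41, SE 0.0799, adjusted p = 0.00652). F7, factor VII of the tissue factor route, fell in the same 2 comparisons (knockout log2 fold change -0.64, SE 0.0947, adjusted p = 0.00101, and hepatectomy log2 fold change -0.40, SE 0.0957, adjusted p = 0.0162), and its hepatectomy call was lost without sham 2 or 3 (adjusted p from 0.0688 to 0.0716). F9, factor IX, fell in the knockout (log2 fold change -0.39, SE 0.0951, adjusted p = 0.0110). F5, F10 and F13b, which encode factors V and X and the carrier chain of factor XIII, were called in none, nor was Kng1, the kininogen cofactor of the contact route, which has a near-identical copy, Kng2.

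F2, prothrombin, was 1858, 1791 and 1794 CPM in sham livers and 1385, 1329 and 1582 CPM after hepatectomy (log2 fold change -0.34, SE 0.0921, adjusted p = 0.0250), a call lost without hepatectomy 1 or 2 or sham 1, 2 or 3 (adjusted p from 0.0653 to 0.0812). It was 1753, 1620.0 and 1769 CPM in wild type and 1537, 1577 and 1619.8 in the knockout, 1785 and 1809 CPM in chow and 1741 and 1740.3 in high fat hepatocytes, and 1516, 1699.7 and 2008 CPM on floxed chow and 1391, 1459 and 1185 on cholic acid. None of these pairs passed the test. F8, factor VIII, rose in high fat hepatocytes from 6.35 and 5.93 to 10.9 and 11 CPM (log2 fold change 0.84, SE 0.116, adjusted p = 0.00899). All 9 endothelial markers were raised in this comparison, and their sum was 52.4 and 50.8 CPM on chow and 123 and 122 CPM on high fat diet, none at 0, so F8 and these markers moved together. Their part in the F8 result was not tested. In whole liver F8 was 5.21, 11.5 and 10.1 CPM in wild type, 13.1, 6.74 and 7.59 in the knockout, 21.8, 24.4 and 13.4 in sham, 15.4, 15.9 and 14.9 after hepatectomy, 6.53, 4.35 and 10.7 on floxed chow and 7.43, 6.81 and 10.02 on cholic acid, with no call.

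Antithrombin and protein C, which restrain clotting, fell in the knockout and after hepatectomy, while protein S rose in both. Serpinc1, antithrombin, stood at 2088, 1876 and 2198 CPM in wild type and 1224, 1234 and 1222 CPM in the knockout (log2 fold change -0.74, SE 0.106, adjusted p = 0.000838). It stood at 2634, 2348 and 2355 CPM in sham livers and 1711, 1642 and 1872 CPM after hepatectomy (log2 fold change -0.49, SE 0.0930, adjusted p = 0.00584). The groups did not overlap in either comparison. In hepatocytes it was 1945 and 1896 against 1613 and 1662 CPM (log2 fold change -0.23, SE 0.0860, adjusted p = 0.103), and in floxed mice 1961, 2269 and 2342 on chow and 2150.2, 2249 and 1852 CPM on cholic acid (log2 fold change -0.07, SE 0.176, adjusted p = 0.840). Zbtb37 overlaps 34.4% of its exon length on the opposite strand.

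Proc, protein C, which inactivates factors V and VIII, stood at 489.6, 437 and 463 CPM in wild type and 264, 282 and 276 CPM in the knockout (log2 fold change -0.76, SE 0.0917, adjusted p = 0.000362). It stood at 535, 545 and 591 CPM in sham and 361, 366 and 438 CPM after hepatectomy (log2 fold change -0.52, SE 0.0998, adjusted p = 0.00617). The groups did not overlap in either comparison. Pros1, protein S, the cofactor of protein C, was raised in the knockout (log2 fold change 0.48, SE 0.135, adjusted p = 0.0205) and after hepatectomy (log2 fold change 0.38, SE 0.110, adjusted p = 0.0329). The knockout call was lost without wild type 2 (adjusted p = 0.0735), and the hepatectomy call was lost without hepatectomy 1 or 3 or sham 1, 2 or 3 (adjusted p from 0.0681 to 0.125). Serpind1, heparin cofactor II, fell in the knockout (log2 fold change -0.32, SE 0.102, adjusted p = 0.0359), a call lost without knockout 1 or 2 or wild type 1, 2 or 3 (adjusted p from 0.0553 to 0.0887).

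Among genes of clot breakdown and adhesion, Plg, the precursor of plasmin, fell in the knockout from 3136, 3113 and 3058 to 2362, 2407 and 2399 CPM (log2 fold change -0.38, SE 0.100, adjusted p = 0.0167), and although the groups did not overlap, the call was lost without knockout 1 or 2 or wild type 1 (adjusted p from 0.0568 to 0.0701). It was 2982, 3015 and 2968 CPM in sham and 2881, 2588 and 3244 after hepatectomy, 3201 and 3013 CPM in chow and 2666 and 2657 in high fat hepatocytes, and 2347, 2639.5 and 2835 CPM on floxed chow and 2133, 2539 and 1856 on cholic acid, and none of these pairs was called. Serpinf2, the inhibitor of plasmin, was called in no comparison. Vtn, vitronectin, an adhesive protein that also binds the terminal complement complex, fell in the knockout from 2579, 2297 and 2554 to 1517, 1593 and 1382 CPM (log2 fold change -0.73, SE 0.111, adjusted p = 0.00122). Under cholic acid it fell from 2155, 2572 and 2425 to 1409.5, 1439 and 1332 CPM (log2 fold change -0.77, SE 0.167, adjusted p = 0.0384), with no overlap between the groups, and this call was lost without cholic acid 1, 2 or 3 or floxed chow 1 or 2 (adjusted p from 0.0734 to 0.147).

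A call in 1 comparison and not in another is no difference, so the differences of the fold changes were tested between the 3 whole-liver experiments with 3 libraries a group. Strain, age, feeding and experiment changed along with the perturbation and cannot be told apart from it. Between the knockout and hepatectomy the effect differed for 15 of 40 members tested, beside 31.5% of all genes. The effect was lower in the knockout for 9 complement genes, led by C9 (-3.40, SE 0.574, adjusted p = 0.000674), C6 (-2.65, SE 0.281, adjusted p = 2.12e-05), C8a (-2.28, SE 0.318, adjusted p = 0.000162) and C8b (-1.60, SE 0.153, adjusted p = 9.53e-06). Mbl1 (-1.05), Cfb (-1.02), Serping1 (-0.96), C3 (-0.77) and C8g (-0.73) made up the rest, and of the coagulation genes Vtn (-0.93), Fgg (-0.65) and Serpind1 (-0.38) were lower, all as differences of log2 fold changes. It was higher in the knockout for C2 (0.83, SE 0.186, adjusted p = 0.00434), F11 (0.67, SE 0.174, adjusted p = 0.0108) and Masp2 (0.35, SE 0.101, adjusted p = 0.0185). The differences of Serpind1, Cfb and Masp2 were lost without some single library (in 7, 3 and 1 of 12 fits, adjusted p up to 0.0862, 0.0581 and 0.0501).

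**Figure D5:**
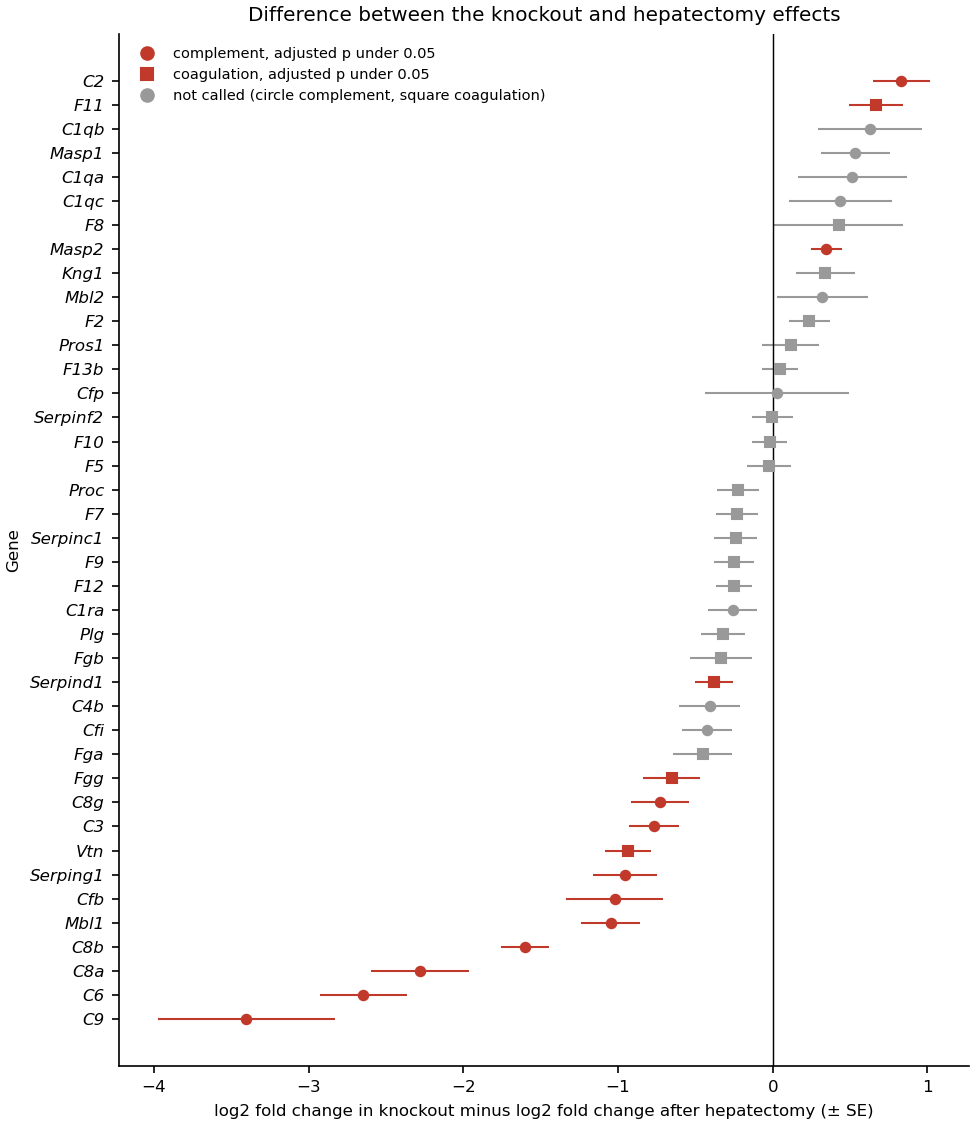
Difference of the log2 fold change in the knockout and after hepatectomy (x axis, points with SE bars) for the 40 members tested (y axis), circles for complement and squares for coagulation, red where the adjusted p is under 0.05. C9, C6, C8a and C8b lie furthest left, and C2 lies furthest right.

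Serpinc1, Proc, F12 and F7, which fell in both, had differences of -0.24, -0.23, -0.25 and -0.23 that were not called (SE 0.141, 0.135, 0.117 and 0.135, adjusted p 0.217, 0.227, 0.121 and 0.215), which does not show that the 2 effects were alike. Between the knockout and cholic acid the effect differed for 3 of 41 members, beside 13.9% of all genes: Mbl1 (1.15, SE 0.299, adjusted p = 0.0225), F11 (1.50, SE 0.245, adjusted p = 0.00187) and Serpinc1 (-0.67, SE 0.195, adjusted p = 0.0388). Of these, Mbl1 was lost in 5 of 12 fits without a single library (adjusted p up to 0.0574) and Serpinc1 in 10 of 12 (up to 0.0985). Without floxed chow 3 there were 9 differing members in place of 3, and the share of all genes in that fit is not given here. The terminal genes C9, C6 and C8b had differences of -1.40, -0.38 and 0.26 between knockout and cholic acid (SE 0.597, 0.568 and 0.303) that were not called.

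Between hepatectomy and cholic acid the effect differed for 12 of 41 members, beside 13% of all genes. It was higher after hepatectomy for C6 (2.27), Mbl1 (2.21), C9 (2.01), C8b (1.87), C8a (1.64), Vtn (1.00), Fgg (0.99), F11 (0.84), Fgb (0.82) and Serping1 (0.76), in log2 units. It was lower for Masp1 (-1.43) and C2 (-0.99). Fgb and F11 were lost in 8 of 12 fits without a single library (adjusted p up to 0.0951 and 0.0715), C2 in 6 (up to 0.0762) and Fgg in 2 (up to 0.0536).

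With TCPOBOP no member was called by edgeR with all 4 libraries, and 1 control library goes against its label. C3 stood at 9002 and 6070.0 CPM for corn oil, as labelled, against 18958 and 22014 CPM for TCPOBOP (log2 fold change 1.44, SE 0.394, adjusted p = 0.812), and both TCPOBOP libraries lay above both corn oil libraries. DESeq2's Wald test called C3. Fitted without the library labelled corn oil 1, where the lone corn oil library is assumed to vary like the TCPOBOP libraries, 6 members were raised, beside 9.35% of 13190 genes called. These were C3 (1.76), C8b (0.59) and Masp1 (0.56) of complement and F10 (0.88), Pros1 (0.75) and F7 (0.70) of coagulation. F10 was 712 and 377 CPM for corn oil 1 and 2, as labelled, against 731 and 651 CPM for TCPOBOP, and F7 was 133 and 86.3 against 146 and 133 CPM. For both genes, as for Cyp2b10, the library labelled corn oil 1 lay near the TCPOBOP libraries, while for C3 it lay near corn oil 2.

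The fibrinogen chains and Plg lay higher with TCPOBOP without passing the test. In the order corn oil 1 and 2 and then TCPOBOP 1 and 2, Fga was 3145 and 4219.6 against 6321 and 6112 CPM, Fgb 2833 and 3912 against 5149 and 5209 CPM, and Fgg 2357 and 3098 against 4178 and 4173 CPM. Plg was 2837 and 2289 against 3837 and 3521 CPM. These 4 genes were higher in both TCPOBOP libraries than in both labelled corn oil, and none was called, with adjusted p between 0.839 and 0.886. C9 was 442 and 596 against 643 and 443 CPM, Mbl1 126 and 192 against 178 and 168, Mbl2 353 and 276 against 304 and 279, and F2 1353 and 1605 against 1519 and 1429.8 CPM. Serpinc1 was 1982 and 2036 against 2035 and 2031 CPM, F11 66.1 and 71 against 57.1 and 52, and F8 13.5 and 11.1 against 8.35 and 12.2 CPM. The C1q chains were 28 and 33.7 against 28.2 and 36.3 CPM for C1qa, 26.9 and 34.3 against 31 and 37.4 for C1qb, and 30.01 and 38.3 against 31.6 and 36.2 for C1qc. Of these genes F11 alone had its groups apart, below corn oil with TCPOBOP, and it was not called (log2 fold change -0.33, SE 0.131, adjusted p = 0.841).

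As a share of all reads counted to genes, the 21 complement genes together made up 1.30% ± 0.0185 (SD, n = 3) in wild type and 1.13% ± 0.105 in the knockout, and 1.21% ± 0.0464 in sham and 1.81% ± 0.140 after hepatectomy. The share was 1.68% ± 0.0449 (n = 2) in chow and 1.51% ± 0.0910 in high fat hepatocytes, and ran from 1.01% to 1.23% on floxed chow and from 1.23% to 1.30% on cholic acid. It was 1.38% ± 0.180 with corn oil and 2.67% ± 0.230 with TCPOBOP (n = 2). The 20 coagulation genes made up 2.50% ± 0.133 in wild type and 2.65% ± 0.0945 in the knockout, and 2.62% ± 0.0278 in sham and 3.43% ± 0.304 after hepatectomy. They made up 2.70% ± 0.107 in chow and 2.55% ± 0.0244 in high fat hepatocytes, 2.79% ± 0.235 on floxed chow and 2.59% ± 0.229 on cholic acid, and 2.43% ± 0.195 with corn oil and 3.05% ± 0.0232 with TCPOBOP. Both lists thus took a larger share in every hepatectomy library than in every sham library, where 4 complement genes were raised and 4 lowered and 4 coagulation genes were raised and 6 lowered. The direction of some sums turned with the scaling. With TMM factors the coagulation sum was 26802 ± 778 CPM for wild type against 24760 ± 1766 CPM for the knockout, and the complement sum 11968 ± 1714 CPM on floxed chow and 11811 ± 822 CPM on cholic acid, both lower in the second group. By group mean CPM, C3, Fga and Fgb are the most abundant members, so they weigh most in these sums. Fgg lay below Plg in some groups, among them wild type and sham.

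Genes that work with the members were taken from lists of 30 complement and 33 coagulation partners, of which 29 and 33 were in the table. Of complement partners 6 were raised and 6 lowered of 25 tested in the knockout, 4 and 5 of 27 after hepatectomy, 8 and 2 of 23 in hepatocytes, 0 and 1 of 25 under cholic acid, and 0 of 24 with TCPOBOP (edgeR, with 3 at an unadjusted p under 0.05). The shares of all tested genes called were 40.4%, 30.7%, 24%, 4.77% and 0% in the same order. With TCPOBOP 5.87% of all genes had an unadjusted p under 0.05. In the knockout Hc, the gene of C5, fell (log2 fold change -0.83, adjusted p = 0.000336), as did the collectin Colec10 (log2 fold change -1.18, adjusted p = 0.0285). Raised there were Vsig4 (log2 fold change 1.00, adjusted p = 0.0164), a complement receptor of macrophages, C3ar1 (log2 fold change 0.93, adjusted p = 0.0360), the receptor of C3a, and the collectin Colec11 (log2 fold change 0.54, adjusted p = 0.0202). Hc also fell in high fat hepatocytes (log2 fold change -0.71, adjusted p = 0.00657) and rose after hepatectomy (log2 fold change 0.64, adjusted p = 0.00108), with C4bp, an inhibitor of the classical route (log2 fold change 0.60, adjusted p = 0.00209), and C4a (log2 fold change 2.02, adjusted p = 0.00255). Colec11 and Colec10 fell after hepatectomy (log2 fold change -0.72, adjusted p = 0.0122, and log2 fold change -0.59, adjusted p = 0.00152) and rose in high fat hepatocytes (log2 fold change 1.91, adjusted p = 0.00774, and log2 fold change 1.74, adjusted p = 0.00835), where 7 of 8 stellate cell markers were raised too, a part that was not tested.

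Of coagulation partners 14 were raised and 2 lowered of 29 tested in the knockout, 8 and 5 of 30 after hepatectomy, 6 and 2 of 28 in hepatocytes, 0 and 1 of 27 under cholic acid, and 0 of 28 with TCPOBOP (edgeR, with 6 at an unadjusted p under 0.05). Beside them stand the same shares of all genes, 40.4%, 30.7%, 24%, 4.77% and 0% (5.87% at an unadjusted p under 0.05). In the knockout Plat, the tissue activator of plasminogen, rose from 0.242 to 4.89 CPM (log2 fold change 4.34, adjusted p = 7.37e-05). Thbs1, thrombospondin, rose as well (log2 fold change 3.42, adjusted p = 1.60e-05). Vkorc1 and Lman1, which serve vitamin K recycling and the export of factors V and VIII, fell (log2 fold change -0.67, adjusted p = 0.0182, and log2 fold change -0.47, adjusted p = 0.00263). After hepatectomy Fgl1, a fibrinogen-like protein of hepatocytes, rose from 166 to 1243 CPM (log2 fold change 2.91, adjusted p = 6.46e-06), and Thbd, thrombomodulin, the receptor that lets thrombin activate protein C, rose too (log2 fold change 1.33, adjusted p = 0.00198). Hgfac, a protease related to factor XII, fell (log2 fold change -1.03, adjusted p = 0.000330), as did Adamts13, which cuts von Willebrand factor (log2 fold change -0.93, adjusted p = 0.0126), and Proz, protein Z (log2 fold change -0.39, adjusted p = 0.00664). In hepatocytes Anxa2, which binds plasminogen on cells, rose most (log2 fold change 3.24, adjusted p = 0.00863), and Tfpi, the inhibitor of the tissue factor route, rose as well (log2 fold change 1.39, adjusted p = 0.0133). There F2r, a thrombin receptor, fell (log2 fold change -0.48, adjusted p = 0.0498), and under cholic acid Hgfac fell (log2 fold change -1.11, adjusted p = 0.0113). In the knockout the stellate cell markers were raised in 6 of 8, with sums of 218 to 355 CPM in wild type and 487 to 555 CPM in the knockout, and their part in the rise of Plat and Thbs1 was not tested.

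Of 18 regulators of liver genes, 3 were raised and 7 lowered in the knockout, 2 and 3 after hepatectomy, 2 and 4 in hepatocytes, 1 and 3 under cholic acid, and 0 with TCPOBOP (edgeR, with 1 at an unadjusted p under 0.05). The shares of all genes were 40.4%, 30.7%, 24%, 4.77% and 0% (5.87% at an unadjusted p under 0.05). Besides the targeted Nr0b2 and Nr1h4, Cebpb, a C/EBP factor of the acute phase, fell in the knockout (log2 fold change -1.50, adjusted p = 0.00109). Raised there were Socs3 (log2 fold change 0.96, adjusted p = 0.0105), Stat3 (log2 fold change 0.46, adjusted p = 0.00593) and Nfkb1 (log2 fold change 0.24, adjusted p = 0.0451). After hepatectomy Stat3 rose (log2 fold change 0.32, adjusted p = 0.0242), as did Nr0b2 (log2 fold change 1.99, adjusted p = 0.00562), and Il6ra, the interleukin-6 receptor, fell (log2 fold change -0.64, adjusted p = 0.0301). Il6ra fell in high fat hepatocytes too (log2 fold change -1.19, adjusted p = 0.0336), with Foxa3 (log2 fold change -1.06, adjusted p = 0.0367) and Foxa1 (log2 fold change -0.77, adjusted p = 0.0432), while Onecut1 rose (log2 fold change 1.69, adjusted p = 0.0287). Under cholic acid Foxa3 (log2 fold change -1.41, adjusted p = 0.00982), Cebpa (log2 fold change -1.08, adjusted p = 0.0406) and Nr1h4 (log2 fold change -1.01, adjusted p = 0.0219) fell and Nr0b2, a target of FXR, rose (log2 fold change 1.96, adjusted p = 0.00982).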

How the data were processed

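Whole-number counts per gene were made by the authors and deposited as 1 table. Tools named, per the submitters' processing notes, are bcl2fastq 2.17.1.14, Trimmomatic, STAR 2.4.2a, Picard 1.119 and HTSeq, with the build GRCm38 (mm10). The annotation release and strand setting are not given in the sources used here. The 5 summary lines of the table, of which reads that overlap several genes made up 1.02% to 3.73% of each column's total, were left out. Each experiment was fitted apart with edgeR 4.0.16 (R 4.3.3, limma 3.58.1): genes with enough counts (filterByExpr, minimum count 10, total 15), TMM scaling, the quasi-likelihood F-test and Benjamini-Hochberg adjustment over all genes, called at an adjusted p under 0.05. The SE is the absolute log2 fold change over the root of F. Differences between comparisons were contrasts in a joint fit of both experiments. Symbols came from a reference name table (47224 identifiers matched), gene positions and exons from GENCODE, and promoters from RefSeq. The procedure was tested on simulated data. Replicate numbers were not taken to pair samples. Alternatives were other size factors, library size alone, DESeq2 1.42.0, other count filters, all 26 libraries in 1 fit, a minimum fold change, a replicate block and leaving out each library. Values in every library are given for 16 core members and for the 4 members of each list with the largest called change in a comparison, and of partner genes at most the 3 largest rises and falls with an average log2 CPM of at least 1 are named. The members and lists were chosen with earlier results of these data known. Some partner and regulator genes that the rule selects are not reported here.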

Additional observations from a re-analysis of the deposited data

How the results depend on the processing

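No called member reversed its direction, but with scaling by library size alone the members called after hepatectomy were 12 raised and 5 lowered in place of 8 and 10. Testing against a minimum absolute log2 fold change of 0.5 lowered the complement and coagulation counts to 6 and 2 in the knockout, 0 and 0 after hepatectomy and 5 and 1 in hepatocytes, the coagulation count under cholic acid to 1, and the counts of differing members to 7 (knockout and hepatectomy), 1 (knockout and cholic acid) and 6 (hepatectomy and cholic acid). All 26 libraries in 1 fit gave 7 complement genes in the knockout, 5 after hepatectomy, 4 in hepatocytes (with 1 coagulation gene), 11 under cholic acid (with 4 coagulation genes) and 1 with TCPOBOP, and 12 members differing between knockout and cholic acid. DESeq2's Wald test called 6 coagulation genes in hepatocytes, 10 complement genes under cholic acid, 1 with TCPOBOP, and 6 members differing between knockout and cholic acid. Of all genes it called 3441 of 13892 in hepatocytes, 1445 of 12577 under cholic acid (600 with edgeR) and 109 of 12785 with TCPOBOP. Scaling by library size alone gave 1 coagulation gene under cholic acid and 5 members differing between knockout and cholic acid. The cause of these moves was not tested. The share of all genes called is not given for the minimum fold change, the replicate block or the fit of all 26 libraries. Nor is it given for the counts of differing members under the alternatives, so those counts are not set against it.

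Leaving out each library in turn gave 7 to 12 complement and 7 to 9 coagulation genes in the knockout (7 complement genes without wild type 1), 6 to 10 and 7 to 9 after hepatectomy, and 6 to 10 and 2 to 2 in hepatocytes (6 without high fat 1 and 7 without high fat 2). It gave 3 to 10 and 0 to 3 under cholic acid (10 complement genes without floxed chow 3, 1 coagulation gene without floxed chow 1, cholic acid 2 or cholic acid 3, and 0 without floxed chow 2 or cholic acid 1) and 0 to 3 and 0 to 3 with TCPOBOP (3 and 3 without corn oil 1, 3 and 1 without corn oil 2). Differing members numbered 13 to 18 for knockout and hepatectomy, 1 to 9 for knockout and cholic acid (1 without wild type 1 or 2, knockout 1 or 2 or cholic acid 2, 5 without cholic acid 3, 9 without floxed chow 3) and 8 to 15 for hepatectomy and cholic acid. Where a group was left with 1 library, that library is assumed to vary like the others. The share of all genes called is not given beside these counts, so they are not set against it.

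Same-numbered samples deviated together with correlations of -0.21 to 0.0038 in the knockout, -0.075 to 0.119 after hepatectomy, 0.089 to 0.158 under cholic acid, 0.137 in hepatocytes and 0.133 with TCPOBOP, and correlated best with their own number in 0, 1 and 3 of 3 pairs in the first 3 and in 2 of 2 in the last 2. With 2 libraries a group the deviations mirror each other, so the last 2 could give only 2 of 2 or 0 of 2. Numbers were taken as pairs only where 3 or more pairs all had a correlation over 0.1, which held in no comparison. With a replicate block 1 coagulation gene was called under cholic acid and 1 member differed between knockout and cholic acid, and the other counts moved by at most 1.5 times. Cfd, F8 and Cfb were among the members with the fewest counts, which limits their tests. The exons of Cfb share 79.5% of their length with Gm20547, so its low counts cannot be put down to depth.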

Other observations

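C4b differed between the control groups. It stood at 227, 220.2 and 219.5 CPM in the sham livers of C3H/HeN mice, and at 1385, 1279 and 1329 CPM in wild type, 1887 and 1962 CPM in chow hepatocytes, 968, 993 and 1206 CPM on floxed chow and 953 and 1317 CPM with corn oil (the first, labelled corn oil 1, went against its label in Cyp2b10), all from C57BL/6J mice. The sham livers were lowest, with no overlap with the other control groups. The gene has a near-identical copy in C4a, so its counts are uncertain. CPM were scaled within each experiment, no test was made across experiments, and strain and experiment cannot be told apart.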
